A study of Mus musculus with 42 samples.

Results

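The genes described here encode chains of axonemal dynein, the motor that bends motile cilia and flagella. Of the 35275 genes in the count tables, 10 were matched by symbol: Dnah11, Dnah1, Dnah2, Dnah5, Dnah6, Dnah7a, Dnah9, Dnah12, Dnaic1 and Dnaic2. The group was chosen on the basis of measured values: Dnah11 had been called higher after refeeding in both formerly fasted groups, and the other 9 genes, called the ciliary members below, are chains of the same kind of motor set beside it. All 10 passed the filter on low counts in both tables. The RNA came from whole cerebellum of male C57BL/6 mice. From an age of 3 months, and for 3 months, mice ate freely (AL), went without food for 16 h of every day (IF16) or for 24 h on every other day (EOD), and the cerebellum was taken at 6 months. For the groups AL-R, IF16-R and EOD-R the same schedules were followed by 2 months of free feeding, and the tissue was taken at 8 months. There were 5 libraries per group and 6 groups. The labels number these as replicates and do not say whether each is 1 mouse, so p-values measure the spread between the libraries.

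Axonemal dyneins form 2 rows of arms along the microtubule doublets of a motile cilium. Outer arms carry the heavy chains encoded by Dnah5, Dnah9 and Dnah11 and the intermediate chains encoded by Dnaic1 and Dnaic2. Dnah1, Dnah2, Dnah6, Dnah7a and Dnah12 encode heavy chains of inner arms. In the brain, motile cilia stand on the ependymal cells that line the ventricles, while neurons and most glia carry a primary cilium that lacks dynein arms. Loss of Dnah11 in the mouse disturbs left-right asymmetry, and mutations of the human outer arm genes cause primary ciliary dyskinesia.

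The stretch before the start site was compared first, because transcription of ciliary genes is known to be driven by RFX factors, which bind the X-box, an inverted repeat, and by the forkhead factor FOXJ1. All 10 genes had 1 window of 300 bases (250 before to 50 after the start) in the RefSeq promoter table of GRCm38.p6, which is the build that mm10 denotes. An X-box was searched as GTTNC, then 1 to 3 bases, then GNAAC, a pattern that reads the same on both strands and was set after these sequences had been seen. It stood in 5 of the 10 windows and in 1.71% of the 32851 windows of all genes. For other axonemal dynein chains the count was 3 of 12, and for docking and assembly of the arms 2 of 7. Ciliated ependymal markers had 3 of 13 and radial spoke and central pair genes 1 of 14. The nexin-dynein regulatory complex and ruler had 1 of 7 and cytoplasmic dynein 0 of 10. The 5 matches are shown with 25 bases on each side, 5′ to 3′ on the gene's strand, the match in capitals.
Dnah6: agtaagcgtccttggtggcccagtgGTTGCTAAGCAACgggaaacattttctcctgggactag
Dnah7a: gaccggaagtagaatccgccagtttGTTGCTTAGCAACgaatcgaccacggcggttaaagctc
Dnah9: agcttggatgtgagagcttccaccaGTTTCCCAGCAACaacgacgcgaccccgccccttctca
Dnaic1: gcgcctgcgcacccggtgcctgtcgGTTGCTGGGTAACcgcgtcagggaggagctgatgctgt
Dnaic2: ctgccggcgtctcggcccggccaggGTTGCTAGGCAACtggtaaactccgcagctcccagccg
These lie at chr6:73221630-73221692 (minus strand), chr1:53706804-53706866 (minus), chr11:66168596-66168658 (minus), chr4:41569750-41569812 (plus) and chr11:114727361-114727423 (plus). In each of them 3 bases separated the 2 parts of the pattern. The match began 36 bases before the start site in Dnah6, 57 in Dnah7a, 82 in Dnah9, 19 in Dnaic1 and 33 in Dnaic2.

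Dnah11 had no match, and its window also lacked the shorter GTTGC on either strand, which was present in the windows of the 9 ciliary members and in 35.2% of all windows. Other axonemal dynein chains had GTTGC in 10 of 12, cytoplasmic dynein in 6 of 10 and granule cell markers in 2 of 9. The 250 bases before the start of Dnah11, at chr12:118199044-118199293 on the minus strand, are given for comparison with the 5 above.
Dnah11: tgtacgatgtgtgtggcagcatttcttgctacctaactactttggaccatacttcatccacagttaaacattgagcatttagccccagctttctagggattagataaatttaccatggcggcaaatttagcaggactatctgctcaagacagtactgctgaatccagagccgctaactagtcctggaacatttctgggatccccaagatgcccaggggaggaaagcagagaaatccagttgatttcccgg
The forkhead letters GTAAACA, searched on both strands, were in none of the 10 windows and in 3.65% of all windows. A match describes letters in this window only. The RefSeq start equalled or lay within 20 bases of the deposited gene start for 9 genes, and 1720 bases from it for Dnah12.

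Dnah11 was among the most abundant of the 10 transcripts per length. FPKM, the count divided by transcript length and by the library's total, served for levels between genes. Averaged over the 30 libraries, Dnaic2 stood at 2.304 ± 0.299 FPKM (SD), Dnah11 at 1.583 ± 0.306, Dnaic1 at 1.197 ± 0.234 and Dnah6 at 0.938 ± 0.106. The next 5 were far lower. Dnah1 had 0.1458 ± 0.0333 FPKM, Dnah2 0.1379 ± 0.0344, Dnah9 0.1124 ± 0.0285, Dnah5 0.1092 ± 0.025 and Dnah12 0.1011 ± 0.0354. Dnah7a was lowest, with 0.0323 ± 0.0111 FPKM. In every library Dnah6 exceeded Dnah1, by 3.3- to 9.44-fold, so the step between the leading 4 and the rest was wider than the spread. Dnaic2 was above Dnah11 in 29 of 30 libraries. Within the lower group most neighbours were not separated: Dnah1 exceeded Dnah2 in 18 of 30 libraries, Dnah9 exceeded Dnah5 in 15, and Dnah5 exceeded Dnah12 in 18. Dnah2 exceeded Dnah9 in 25.

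**Figure D1:**
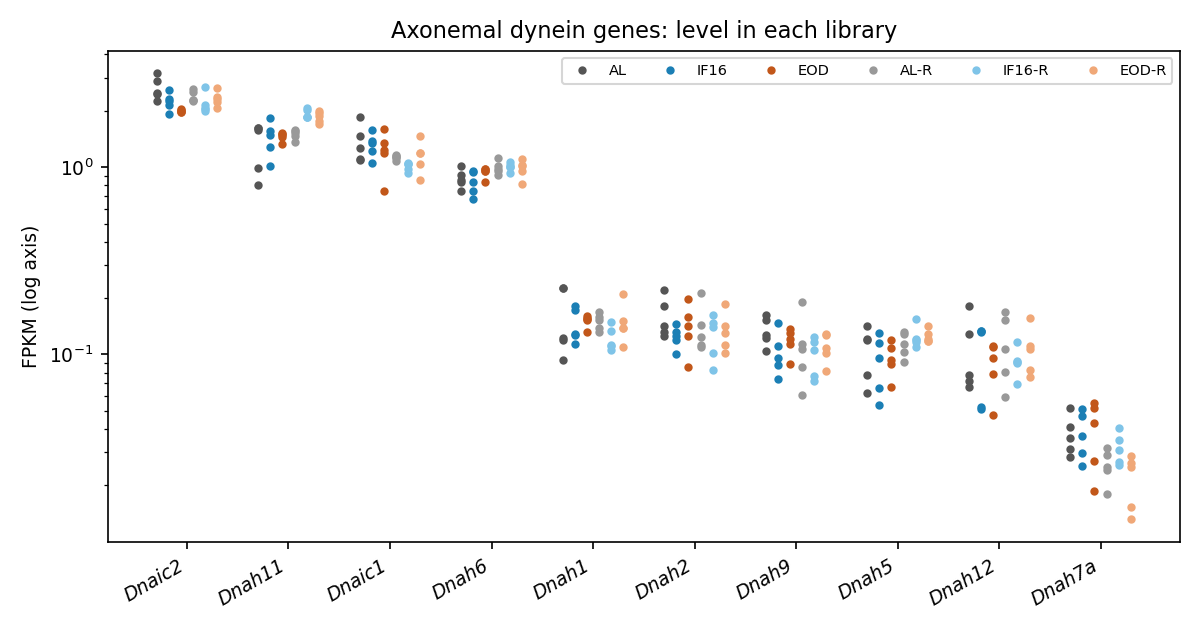
FPKM (vertical log axis) of each gene in each of the 30 libraries, one point per library, coloured by group, with genes ordered by their mean. Dnaic2, Dnah11, Dnaic1 and Dnah6 lie at or above 0.6726 in all libraries, while Dnah1, Dnah2, Dnah9, Dnah5 and Dnah12 lie between 0.04754 and 0.227.

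Within the outer arm, Dnah11 and both intermediate chain genes were at the high levels and the heavy chain genes Dnah5 and Dnah9 at the low ones. The depth behind these levels differed: Dnah11 was covered by 384 to 941 counts per library, Dnah6 by 284 to 455, Dnaic2 by 156 to 291 and Dnaic1 by 63 to 158. Dnah7a had 5 to 22 counts and Dnah12 10 to 43, so counting error limits both. Dnah7a also has near-identical copies in the mouse genome, and its counts are uncertain for that reason. Total counts ran from 26799825 to 36167435 per library.

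The positions of the genes bear on how safely reads were assigned, since strand handling is not given in the sources used here. Dnah11 (ENSMUSG00000018581) spans chr12:117877982-118199043 on the minus strand, with a transcript length of 14072 bases. Its 3′ end overlaps Cdca7l on the opposite strand by 725 bases, and Cdca7l averaged 19.5 counts against 719.7 for Dnah11. Dnaic1 (ENSMUSG00000061322, chr4:41569775-41638158, plus strand) shares 15 bases with Enho, an opposite-strand gene with 2886 counts on average against 97.6 for Dnaic1. Dnah9 overlaps Gm12296 by 517 bases and Dnah2 overlaps Dnah2os by 5129 bases. These partners averaged 1.03 and 0.933 counts. Reads of overlapping genes on opposite strands cannot be told apart without strand.

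After 2 months of refeeding, Dnah11 was higher in both formerly fasted groups than in the controls. The values are CPM, counts divided by the library size after TMM scaling within each table. AL-R libraries held 20.99, 21.74, 22.08, 20.76 and 19.33 CPM. IF16-R libraries held 28.08, 26.17, 29.7, 26.42 and 26.45 CPM, and EOD-R libraries 26.38, 27.24, 23.86, 28.21 and 24.99. Every library of either formerly fasted group was above every control library, and the formerly fasted groups overlapped each other. The AL-R mean was 20.98 ± 1.07 CPM (SD, n = 5), that of IF16-R 27.36 ± 1.51 and that of EOD-R 26.14 ± 1.74. The log2 fold change was 0.38 (SE 0.0553) for IF16-R against AL-R and 0.32 (SE 0.0555) for EOD-R against AL-R. Both comparisons share the AL-R libraries, and both were used to choose the gene, so these values are a description without a test. In IF16-R against AL-R, 1 of the 10 genes was called at an adjusted p under 0.05, against 0.17% of the 16444 genes tested. In EOD-R against AL-R the count was also 1 of 10, against 0.0426% of all genes.

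**Figure D2:**
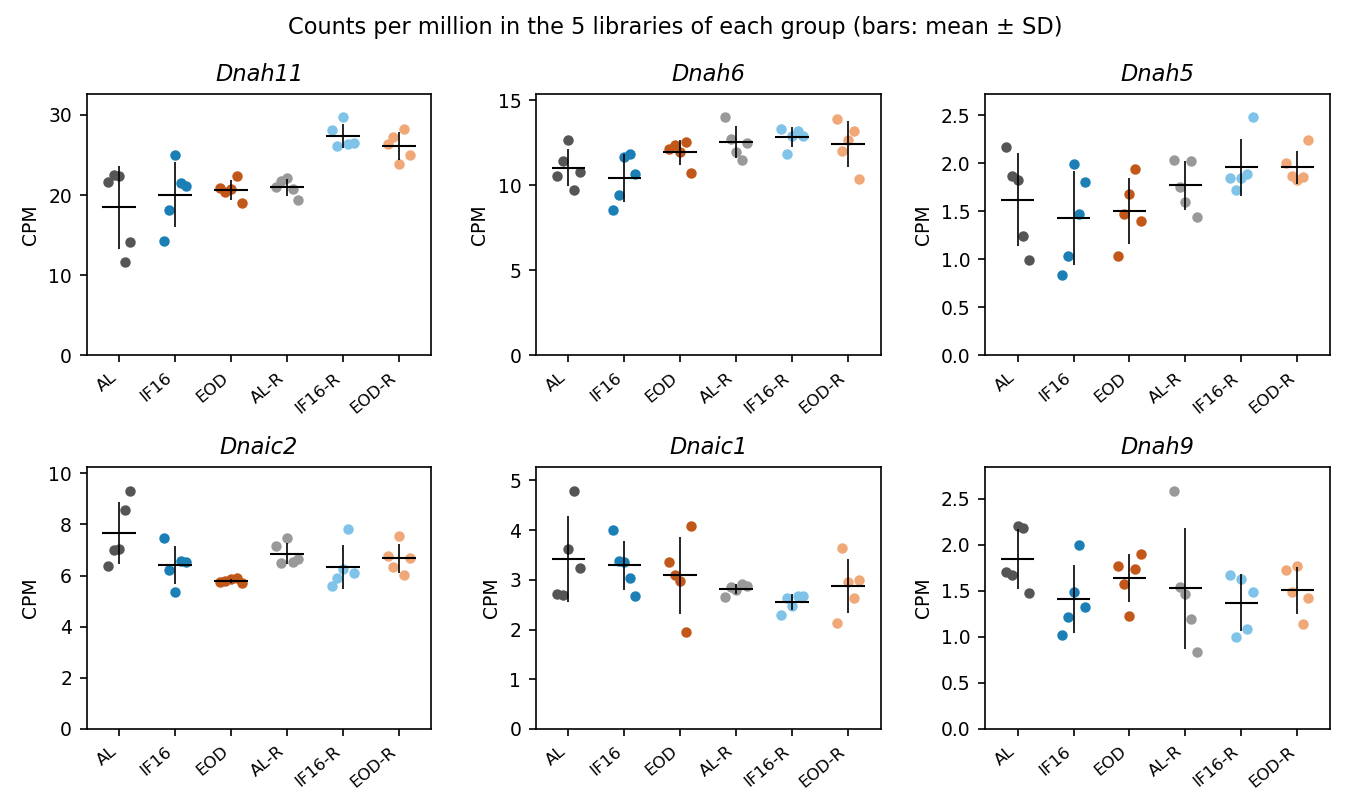
CPM (vertical axis from 0) of 6 of the genes in the 5 libraries of each group, with horizontal bars at the mean and vertical bars of 1 SD. Dnah11 in IF16-R and EOD-R lies at or above 23.86, above all AL-R libraries, while Dnaic2 in EOD lies below all AL libraries.

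A further difference accompanied the group labels in the first of those comparisons. The length gradient of a library describes how its log2 CPM, centred for each gene on the table mean, slopes against log2 transcript length. It was computed from genes of these same libraries, members among them, so on average long transcripts rise with it by construction. IF16-R libraries had gradients of -0.00270 to 0.0426, AL-R libraries of -0.0290 to 0.00291 and EOD-R libraries of -0.0315 to 0.0134, so IF16-R and AL-R overlapped little and EOD-R and AL-R more. With the gradient as a covariate, the log2 fold change of Dnah11 was 0.30 (SE 0.0635) for IF16-R against AL-R, where neither it nor any other gene was called. In that fit it was 0.32 (SE 0.0497) for EOD-R against AL-R, where it was called. Leaving out 1 library at a time kept the log2 fold change between 0.35 and 0.41 in IF16-R against AL-R, where 9 of 10 such fits called the gene and the fit without IF16-R replicate 3 did not. In EOD-R against AL-R it stayed between 0.29 and 0.35, and 0 of 10 such fits called the gene. The covariate fits and the fits without 1 library reuse the libraries that chose Dnah11, so their calls are a description without a test. Between EOD-R and IF16-R, whose libraries also chose the gene, the log2 fold change was -0.07 (SE 0.0549), again a description without a test.

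At the end of the regimens, before refeeding, Dnah11 did not differ between fasted and control mice beyond the spread of the libraries. AL libraries held 21.69, 22.47, 22.36, 11.64 and 14.11 CPM, IF16 libraries 14.3, 18.08, 25.05, 21.57 and 21.16, and EOD libraries 20.86, 20.34, 20.72, 22.41 and 18.98. AL replicates 4 and 5 and IF16 replicate 1 were below the other 12, and all 3 groups overlapped. Means were 18.5 ± 5.17 CPM in the AL libraries, 20.0 ± 4.04 in IF16 and 20.7 ± 1.23 in EOD. Against AL the log2 fold change of Dnah11 was 0.12 in IF16 (SE 0.173, 95% interval -0.26 to 0.494, edgeR adjusted p = 0.804). In EOD it was 0.16 (SE 0.173, 95% interval -0.215 to 0.539, edgeR adjusted p = 0.605). EOD differed from IF16 by 0.04 (95% interval -0.33 to 0.419, edgeR adjusted p = 0.984). Both intervals against AL include the values 0.38 and 0.32 found after refeeding.

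The 3 libraries with low Dnah11 were the 3 with the lowest length gradient of the 15. AL replicate 4 had a gradient of -0.206, AL replicate 5 one of -0.141 and IF16 replicate 1 one of -0.140, and the other 12 libraries of that table ran from -0.0367 to 0.160. Across the 15 libraries Dnah11 rose with the gradient (Pearson r = 0.918, permutation p = 1e-05, adjusted 2e-04 over 20 relations; with Spearman rho = 0.789, permutation p = 0.00077, adjusted 0.0134). A p of 1e-05 is the lowest value open to these resamples. Pearson r of Dnah11 was 0.818 when the 2 libraries most distant from the median gradient were left out, after centring on group means it was 0.92, and without the 3 lowest libraries it was 0.612 (permutation p = 0.035, n = 12). Without those 3 libraries the sign of the Dnah11 difference turned: the log2 fold change was -0.05 (SE 0.0947) for IF16 against AL and -0.11 (SE 0.0906) for EOD against AL, neither called by edgeR. With the gradient as a covariate it was -0.01 and -0.09. Leaving out AL replicate 4 alone brought Dnah11 to -0.01 in IF16 against AL.

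The change of the group difference between the end of the regimens and the end of refeeding, the interaction in a joint fit of 30 libraries, involves the same libraries that chose Dnah11 and is given without a test. It was 0.27 (SE 0.19) on the log2 scale for IF16 and 0.15 (SE 0.19) for EOD, and the gene was called in neither. Without the 3 libraries of lowest gradient, left out after the data were examined, it was 0.44 (SE 0.106) and 0.42 (SE 0.103). Dnah11 was called in neither of these fits. In the interaction for IF16, 0 of the 10 genes were called, against 0.0474% of the 16877 genes tested, and in that for EOD 0 of 10, against 0.0119%. Of the 9 ciliary members, 0 had an unadjusted p under 0.05 in the first and 1 (Dnaic2) in the second, beside 7.21% and 10.3% of all genes, and DESeq2 called none in either.

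**Figure D3:**
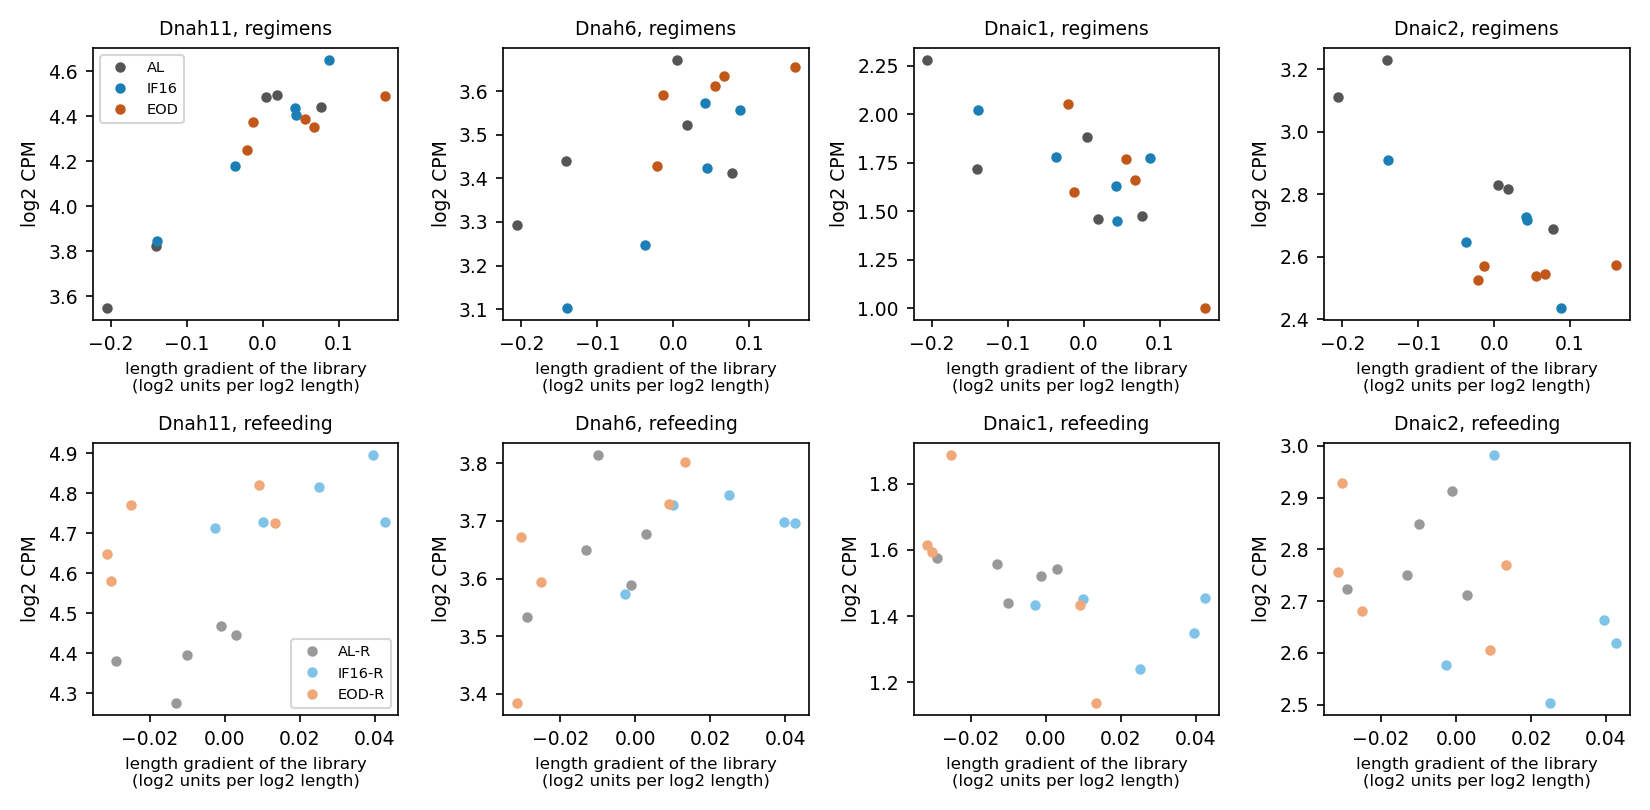
Log2 CPM (vertical axis) of Dnah11, Dnah6, Dnaic1 and Dnaic2 against the length gradient of the library (horizontal axis), one point per library, for the table of the regimens (top) and of refeeding (bottom). At the top, at gradients below -0.1, Dnah11 is low, Dnah6 mostly low and Dnaic1 and Dnaic2 mostly high. At the bottom, all AL-R points of Dnah11 lie below those of IF16-R and EOD-R at any gradient.

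Of the ciliary members, 4 were past the threshold with the gradient at the end of the regimens, 2 long ones rising and 2 short ones falling. These directions are partly built into the gradient, and no share of all genes is set beside this count. Not all long transcripts were past the threshold: r was 0.127 for Dnah9 (permutation p = 0.65) and 0.0246 for Dnah1 (permutation p = 0.932). It was -0.137 for Dnah7a (permutation p = 0.626) and -0.263 for Dnah2 (permutation p = 0.345), each of 12245 bases or more. With the 2 farthest libraries left out r was 0.512 for Dnah9, 0.253 for Dnah1, -0.094 for Dnah7a and -0.0444 for Dnah2. The low r of Dnah9 thus depended on those 2 libraries. Mean counts of these 4 genes were 50.3, 60.8, 12.8 and 61.1, beside 55.3 for Dnah5 and 22.9 for Dnah12. The part of counting error in these r was not tested. Dnah12, with 7005 bases, had r = 0.542 (permutation p = 0.0368, adjusted 0.0849; with rho = 0.557, permutation p = 0.0332, adjusted 0.083). After group-centring its r was 0.671 (permutation p = 0.00707, unadjusted). Dnah6, with a transcript of 12652 bases, rose with it at the end of the regimens (r = 0.687, permutation p = 0.00518, adjusted 0.0186; with rho = 0.532, permutation p = 0.0444, adjusted 0.0988), and so did Dnah5, with 15630 bases (r = 0.679, permutation p = 0.00511, adjusted 0.0186; with rho = 0.714, permutation p = 0.00363, adjusted 0.0242). With the 2 farthest libraries left out r was 0.722 and 0.681, and with the 3 lowest left out it was 0.464 and 0.459 (permutation p = 0.131 and 0.134, n = 12). The intermediate chain genes, with transcripts of 2874 and 2510 bases, fell as the gradient rose. For Dnaic2 r was -0.781 (permutation p = 0.00086, adjusted 0.00787; with rho = -0.6, permutation p = 0.0205, adjusted 0.0586), -0.537 without the 2 farthest libraries and -0.268 without the 3 lowest (permutation p = 0.401, n = 12), so that relation rests on them. For Dnaic1 r was -0.755 (permutation p = 0.00118, adjusted 0.00787; with rho = -0.621, permutation p = 0.0157, adjusted 0.0586), -0.735 without the 2 farthest and -0.699 without the 3 lowest (permutation p = 0.0138, n = 12). After refeeding, Dnaic1 was the 1 member of 10 past the threshold (r = -0.667, permutation p = 0.00559, adjusted 0.0186; with rho = -0.771, permutation p = 0.00134, adjusted 0.0134), with an r of -0.769 once the 2 farthest libraries were left out. There Dnah11 had r = 0.541 (permutation p = 0.0382, adjusted 0.0849; with rho = 0.607, permutation p = 0.0184, adjusted 0.0586), and 0.413 with the 2 farthest left out. The part of the gradient in the group differences was not tested beyond the covariate fits above.

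Among the ciliary members, the lowest adjusted p at the end of the regimens belonged to Dnaic2, an intermediate chain gene of the outer arm. Dnaic2 (ENSMUSG00000034706, chr11:114727408-114757889, plus strand) held 6.39, 6.981, 7.053, 8.581 and 9.313 CPM in the AL libraries, 7.451, 6.21, 5.355, 6.566 and 6.521 in IF16, and 5.748, 5.779, 5.875, 5.895 and 5.703 in EOD. EOD libraries lay close together and below every AL library, and IF16 overlapped AL. Dnaic2 was the 1 ciliary member of 9 without overlap in EOD against AL. Other listed genes, Rfx2, Mag and Gabra6 among them, did not overlap there either. The share of all genes without overlap is not given here for this or any other comparison. The AL mean was 7.66 ± 1.23 CPM, the IF16 mean 6.42 ± 0.754 and the EOD mean 5.80 ± 0.0825. The log2 fold change of Dnaic2 in EOD against AL was -0.40 (SE 0.111, unadjusted p = 0.00225), and it did not pass the threshold over all genes (edgeR adjusted p = 0.232). In IF16 against AL it was -0.25 (SE 0.11, edgeR adjusted p = 0.478). The 2 highest AL libraries, replicates 4 and 5, were again those of lowest length gradient. Without them and IF16 replicate 1, the difference of Dnaic2 in EOD was -0.24 (SE 0.0963, edgeR adjusted p = 0.604).

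Dnaic1, the partner intermediate chain, varied more within groups than between them. It held 2.718, 2.696, 3.627, 4.791 and 3.232 CPM in the AL libraries, 3.996, 3.379, 3.365, 3.037 and 2.675 in IF16, and 3.353, 3.106, 2.968, 1.945 and 4.081 in EOD. All 3 groups overlapped. Log2 fold changes against AL were -0.05 (SE 0.19) in IF16 and -0.14 (SE 0.191) in EOD, with edgeR adjusted p = 0.928 and 0.688.

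Heavy chains of the outer arm other than Dnah11 were low and scattered. Dnah9, which pairs with Dnah5 in the distal part of respiratory cilia, held 1.85 ± 0.327 CPM in the AL libraries, 1.41 ± 0.369 in IF16 and 1.64 ± 0.261 in EOD. Its difference in IF16 was -0.39 (SE 0.184, unadjusted p = 0.0492, edgeR adjusted p = 0.503). Dnah5 held 1.62 ± 0.486, 1.43 ± 0.489 and 1.51 ± 0.34 CPM in the same groups. Like Dnah11, it was low in AL replicates 4 and 5 (1.243 and 0.9921 CPM against 1.828 to 2.169 in the other AL libraries) and in IF16 replicate 1 (0.8413 CPM).

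Of the inner arm genes, Dnah6 was measured best. It held 10.58, 11.44, 12.68, 9.733 and 10.78 CPM in the AL libraries, 8.533, 9.437, 11.7, 11.84 and 10.67 in IF16, and 12.16, 12.36, 11.99, 12.54 and 10.71 in EOD. The 3 groups overlapped, and the log2 fold change against AL was -0.08 (SE 0.1) in IF16 and 0.11 (SE 0.1) in EOD. Dnah2, a heavy chain of the 2-headed inner arm, held 2.19 ± 0.548 CPM for AL, 1.69 ± 0.214 in IF16 and 1.95 ± 0.542 in EOD. Dnah1 held 2.03 ± 0.835, 1.85 ± 0.383 and 1.95 ± 0.144 CPM. Within AL it ranged from 1.216 to 3.002 CPM, a coefficient of variation of 41.1%. Dnah12 reached at most 1.243 CPM and Dnah7a at most 0.6632 CPM in these 15 libraries.

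In IF16 against AL, 0 of the 10 genes were called, against 0.0483% of the 16577 genes tested. The 9 ciliary members had a median log2 fold change of -0.13, with 8 values below 0 and 1 above. The median over all genes tested was -0.01. In the same comparison the 13 ciliated ependymal markers tested had a median of -0.18, all 13 below 0, and the 11 choroid plexus markers one of -0.61, all 11 below 0, with 0 called in either list. Their part in the values of the members was not tested beyond fits with either marker mean as a covariate, in which 0 members were called. In EOD against AL, 0 of 10 were called, against 0.0664%, and the median of the 9 was -0.14 with 7 values below 0, beside -0.02 over all genes, -0.11 over the ciliated markers (10 of 13 below 0) and 0.18 over the choroid plexus markers (3 of 11 below 0). An unadjusted p under 0.05 was reached by 2 of the 9 (Dnaic2 and Dnah9) in IF16 and by 1 (Dnaic2) in EOD, beside 9.92% and 14.4% of all genes. In EOD against IF16, edgeR called 0 of 10, against 0% of all genes, and 0 of the 9 had an unadjusted p under 0.05, beside 3.62% of all genes. DESeq2 called none of the 10 in these 3 comparisons, and 1 gene in all in the last. Both comparisons with AL share its libraries.

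After refeeding, 0 of the 9 ciliary members were called in any of the 3 comparisons. Dnaic2 held 7.142, 6.488, 7.469, 6.543 and 6.662 CPM in the AL-R libraries, 5.61, 5.904, 6.27, 7.839 and 6.083 in IF16-R and 6.756, 6.351, 7.547, 6.027 and 6.689 in EOD-R, and all 3 groups overlapped. Its log2 fold change was -0.12 (95% interval -0.314 to 0.0839) in IF16-R and -0.04 (95% interval -0.238 to 0.159) in EOD-R. For Dnah6 the AL-R mean was 12.5 ± 0.946 CPM, the IF16-R mean 12.8 ± 0.587 and the EOD-R mean 12.4 ± 1.34, with log2 fold changes of 0.03 (SE 0.0744) and -0.01 (SE 0.0747). Dnaic1 held 2.82 ± 0.104, 2.55 ± 0.163 and 2.87 ± 0.547 CPM, Dnah5 1.77 ± 0.26, 1.96 ± 0.299 and 1.96 ± 0.171, and Dnah9 1.53 ± 0.654, 1.37 ± 0.311 and 1.51 ± 0.255. Dnah1 had 1.92 ± 0.169, 1.59 ± 0.22 and 1.92 ± 0.481 CPM.

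Over the 9 ciliary members the log2 fold change ran from -0.28 to 0.31 in IF16-R against AL-R (median -0.13, 6 of 9 below 0) and from -0.23 to 0.15 in EOD-R against AL-R (median -0.02, 6 of 9 below 0). Their SEs ran from 0.0744 to 0.269 and from 0.0747 to 0.274. Beside them, choroid plexus markers had medians of -0.95 (11 of 11 below 0) and 0.28 (11 of 11 above 0), and ciliated markers of -0.08 and 0.01. By edgeR, 0 of the 9 had an unadjusted p under 0.05 in either, beside 9.58% and 8.5% of all genes, and DESeq2 called none of the 9. In EOD-R against IF16-R, 0 of the 10 genes were called, against 0.0182% of all genes. Dnah7a had the widest difference there, at -0.55 (SE 0.266, unadjusted p = 0.0556, edgeR adjusted p = 0.531), on 5 to 15 counts per library. Whether the difference of Dnah11 departs from those of the ciliary members was not tested.

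**Figure D4:**
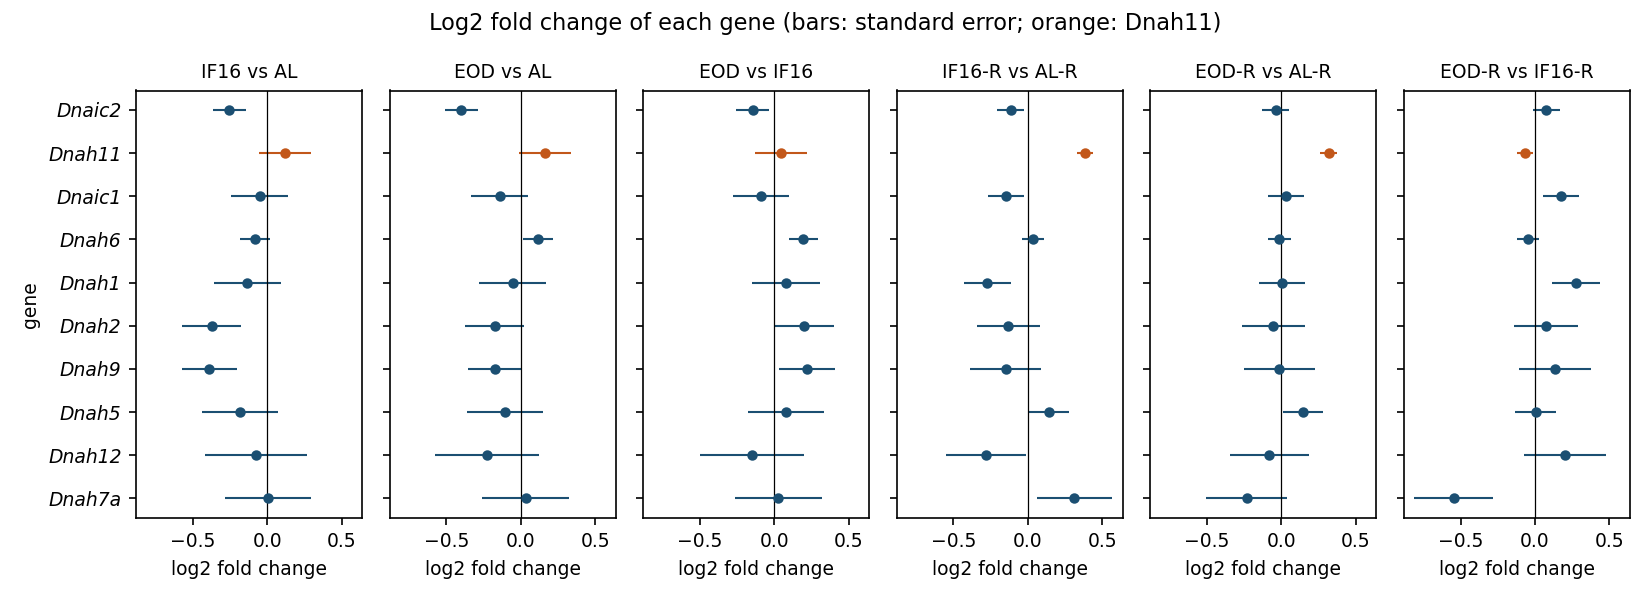
Log2 fold change (horizontal axis) of each gene in the 6 comparisons, with bars of 1 standard error, and Dnah11 in orange. Dnah11 stands at 0.38 and 0.32 against AL-R, and Dnaic2 at -0.40 in EOD against AL, and the 9 genes other than Dnah11 were called in none.

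The tissue content of ciliated cells was followed with 14 markers of ciliated ependymal cells, none of them a member. None was at 0 in all libraries of a group. Their summed level ran from 20.6 to 38.4 CPM in the AL libraries, 18.6 to 26.9 in IF16, 19.3 to 26.1 in EOD, 15.8 to 22.0 in AL-R, 15.6 to 18.9 in IF16-R and 15.8 to 22.9 in EOD-R. In whole tissue, fewer cells of a type and less RNA per cell cannot be told apart.

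Dnah11 did not follow the ciliated markers upward. At the end of the regimens its r with the mean log2 CPM of the ciliated markers was -0.701 (permutation p = 0.00576, adjusted 0.0586 over 40 relations; with rho = -0.564, permutation p = 0.0307, adjusted 0.153), and -0.403 without the 2 farthest libraries. The marker mean and the gradient themselves had r = -0.714 in these libraries. Dnaic1 rose with the marker mean (r = 0.754, permutation p = 0.00181, adjusted 0.0362; with rho = 0.707, permutation p = 0.00417, adjusted 0.0981), and r was 0.629 without the 2 farthest libraries, where the adjusted p was lost. Dnah2 had r = 0.554 (permutation p = 0.0335, adjusted 0.224; with rho = 0.575, permutation p = 0.0265, adjusted 0.153). After refeeding no member passed the threshold: r ran from -0.256 for Dnah11 to 0.631 for Dnah2 (permutation p = 0.36 and 0.0119, adjusted 0.669 and 0.0951). Their rho was -0.221 and 0.4 (permutation p = 0.427 and 0.14, adjusted 0.756 and 0.509), and r was 0.00329 and 0.129 with the 2 farthest libraries left out. With the ciliated marker mean as a covariate the log2 fold change of Dnah11 was 0.38 (SE 0.0521) in IF16-R against AL-R. In EOD-R against AL-R it was 0.31 (SE 0.0524). Without the covariate the values were 0.38 and 0.32. The part of ciliated cell content was not tested beyond this fit.

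**Figure D5:**
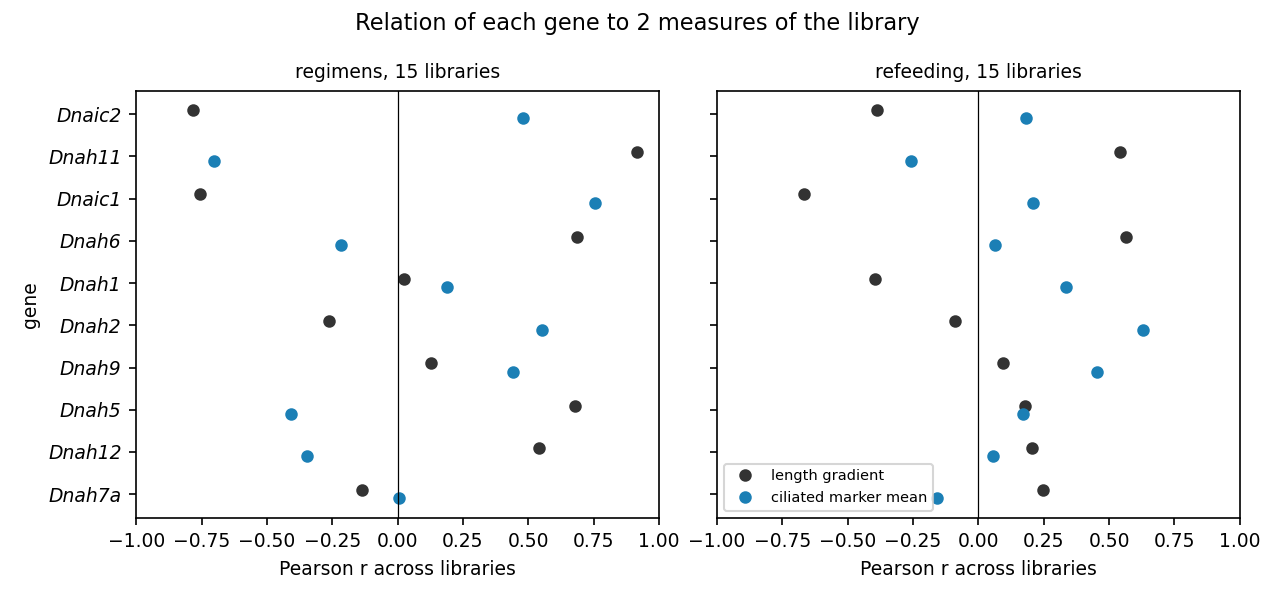
Pearson r across the 15 libraries of each table (horizontal axis) between the log2 CPM of each gene and 2 measures of the library, the length gradient and the mean of the ciliated markers. Dnah11 is at 0.918 with the gradient and -0.701 with the markers at the end of the regimens, and Dnaic1 at -0.755 and 0.754.

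Choroid plexus, the ciliated epithelium that makes cerebrospinal fluid, was present in very unequal amounts. The summed level of its 11 markers ran from 45.3 to 4297 CPM in the AL libraries, 40.5 to 3111 in IF16, 759.5 to 2910 in EOD, 44.3 to 2000 in AL-R, 33.3 to 680 in IF16-R and 37.2 to 2317 in EOD-R. The libraries of each table were split at a gap in the mean log2 CPM of these markers. It ran from 0.5282 to 2.226 in the regimens and from 1.856 to 3.069 after refeeding, so much and little are relative to the table. Over all 15 refed libraries r was 0.778 for Dnah2 (permutation p = 0.00036, adjusted 0.0144) and 0.656 for Dnah9 (permutation p = 0.00586, adjusted 0.0586). The rho was 0.604 and 0.575 (permutation p = 0.0205 and 0.0277, adjusted 0.153 for both). Without the 2 farthest libraries r was 0.545 and 0.408. Among the 13 libraries of the regimens with much choroid plexus RNA, r was -0.128 for Dnah11 (permutation p = 0.678), 0.588 for Dnah9 (permutation p = 0.0333) and 0.6 for Dnah2 (permutation p = 0.0305), unadjusted among 20 relations. Among the 11 libraries with little of it after refeeding, r ran from -0.368 for Dnah11 (permutation p = 0.268) to 0.428 for Dnah12 (permutation p = 0.189). With this marker mean as a covariate the log2 fold change of Dnah11 was 0.38 (SE 0.0576) and 0.32 (SE 0.057) in the 2 comparisons after refeeding.

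Genes whose levels ran most like Dnah11 were sought over 14073 genes by the mean, over the 2 tables, of Pearson r of group-centred log2 CPM (15 libraries each). Genes whose symbol is Gm plus digits or ends in Rik were dropped before ranking, so the ranks hold for the genes left. The 5 highest were the lincRNA RP23-402K24.2 (0.969 and 0.888 in the 2 tables), Kansl1l (0.947 and 0.801), Jmjd1c (0.931 and 0.807), Rnf214 (0.886 and 0.831) and Ccdc50 (0.937 and 0.779). Jmjd1c encodes a JmjC-domain protein and Rnf214 a RING finger protein. None is a dynein chain. Genes averaging under 1 CPM, Dnah7a and Dnah12 among them, were outside the search. The other ciliary members were farther away. Dnah6 had r = 0.781 and 0.244 with Dnah11 and ranked 2059, and Dnah5 had 0.807 and -0.0361. Dnaic2, with -0.842 and -0.341, ranked 11851. With the length gradient, group-centred Dnah11 had r = 0.92 at the end of the regimens and 0.588 after refeeding. Group-centred Dnaic2 had r = -0.771 and -0.22 with it. The part of the gradient in these likenesses was not tested. Transcript lengths of the 5 genes most like Dnah11 were 3782 to 8609 bases.

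Other genes of the pathway were held in 6 lists of 78 genes in all, and 0 were called in any of the 6 comparisons. The other axonemal dynein chains (12 of 14 tested) had list medians between -0.18 and 0.04 on the log2 scale, and their most abundant gene was the light chain Dnal1, at 53 CPM, with log2 fold changes of -0.01 to 0.10. Of the genes for docking and cytoplasmic assembly of the arms (13 of 14 tested), the assembly factor gene Spag1 led with 37.6 CPM and log2 fold changes of -0.06 to 0.07, and the list medians lay between -0.155 and 0.0336. The nexin-dynein regulatory complex and ruler (8 of 8 tested) was led by Gas8, at 23.2 CPM, with log2 fold changes of -0.165 to 0.0165 and list medians of -0.12 to 0.01. Regulators of motile cilium genes (10 of 11 tested) were led by Rfx1, a gene for an X-box factor, at 64.7 CPM, with log2 fold changes of -0.205 to 0.0474 and list medians of -0.07 to 0.07. Cytoplasmic dynein subunits had 14 of 14 genes tested and medians between -0.00348 and 0.0456, with the light chain Dynll2 at 1093 CPM.

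Within the radial spoke and central pair list (15 and 16 of 17 tested in the 2 tables, medians between -0.18 and 0.07) the most abundant gene was C030017K20Rik, whose gene identifier is that of Cfap74, a central apparatus gene. Its AL-R libraries held 26.7 ± 3.74 CPM, those of IF16-R 19.8 ± 2.05 and those of EOD-R 19.4 ± 1.97, and all libraries of both formerly fasted groups were below all AL-R libraries. Its log2 fold change was -0.43 (SE 0.0909, edgeR adjusted p = 0.0729) in IF16-R and -0.46 (SE 0.0911, edgeR adjusted p = 0.0981) in EOD-R, past the threshold in neither. Dnah11 went the other way in the same libraries.

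Among 8 cell type marker lists, called genes were found in the list of Bergmann glia and astrocytes alone. Gja1, which encodes a gap junction protein, was at 217.2 ± 13 CPM in AL-R. It rose by a log2 fold change of 0.31 in IF16-R (269.8 ± 14.3 CPM, edgeR adjusted p = 0.0116) and of 0.27 in EOD-R (262.5 ± 9.03 CPM, edgeR adjusted p = 0.0427). Aqp4, the water channel gene, rose in IF16-R (0.23, SE 0.0437, edgeR adjusted p = 0.0374), with 0.20 (SE 0.0438, edgeR adjusted p = 0.171) in EOD-R. With the length gradient as a covariate no gene was called in IF16-R against AL-R. The median log2 fold change of that list of 10 was 0.08 in both comparisons, beside -0.00233 and 0.000667 over all genes. Oligodendrocyte markers had higher medians there, 0.14 and 0.15, with 9 of 10 above 0 in each and 0 called. Markers of granule cells, Purkinje cells, oligodendrocytes, microglia, endothelium, choroid plexus and ciliated ependymal cells had 0 called genes in the 6 comparisons. The part of cell content in the Dnah11 values was not tested beyond the 2 covariate fits.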

How the data were processed

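RNA-seq of cerebellum was analysed in 30 libraries; 12 chromatin samples were not analysed here. The authors deposited whole-number read counts and FPKM per gene in 2 tables of 15 libraries, one for the regimens and one for refeeding. STAR 2.5, HTSeq 0.6.1, DESeq2 and the build mm10 are named per the submitters' processing notes; strand handling and the annotation release are not given in the sources used here. The deposited FPKM equal counts per length and per total (largest relative difference 5e-12 at 10 or more counts). Counts were tested with edgeR 4.0.16 in R 4.3.3 (TMM, filterByExpr, quasi-likelihood, Benjamini-Hochberg over all genes), 1 fit per table and 1 joint fit for the interactions. Genes with an adjusted p under 0.05 were called. Over all genes, edgeR's biological coefficient of variation was 14.3% (regimens) and 8.05% (refeeding). Standard errors derive from the F statistic, and 95% intervals use 12 residual degrees of freedom. Log2 CPM used a prior count of 2, permutation tests 100000 resamples, two-sided. The edgeR and permutation steps were tested on simulated data.

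The 10 members, the 15 gene lists (9 of 169 genes matched by identifier under another symbol) and the tests were chosen with earlier results of these data known. The text names all members, genes overlapping them, the called and the most abundant genes of each list, and the 5 genes most like Dnah11; the same search for Dnaic2 is not reported here. The relations with the length gradient, the relations on 1 side of the choroid gap, the fits without 3 libraries and the promoter patterns were added after the data were examined. Alternatives were RLE scaling, DESeq2 1.42.0, no filter on low counts, only the groups compared, a replicate block, covariates and leaving out each library. The RefSeq windows were checked for strand on 500 overlapping pairs.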

Additional observations from a re-analysis of the deposited data

Results flagged for a closer look

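Each member's 5 values in each of the 6 groups were checked for a library far from the others, 60 sets in all, and 2 stood out. Chance flags about 1 in 20 such sets. Dnah1 had 1.704 CPM in EOD replicate 2, below the 1.985 to 2.065 CPM of the other 4 EOD libraries. Dnah5 had 2.48 CPM in IF16-R replicate 5, above the 1.72 to 1.892 CPM of the other 4 IF16-R libraries. Neither gene was called in any comparison.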

How the results depend on the processing

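The call of Dnah11 in IF16-R against AL-R was lost with the length gradient as a covariate (0 members called in place of 1), and leaving out single libraries gave 0 to 1. In EOD-R against AL-R it was lost with only the groups compared (0 in place of 1) and in the fits that each left out 1 library, which gave 0 to 0. The log2 fold change of Dnah11 was 0.30 and 0.32 under those 2 settings. Both calls had chosen Dnah11, so fits of the same libraries describe them and do not test them. Of 1521 values of the 9 ciliary members in alternative fits, 0 were called, and 110 of all 1689 member values had the opposite sign of a main value. Counts over all genes moved more: for IF16, EOD and then EOD-IF16 at the end of the regimens, the same 3 after refeeding, and the interactions for IF16 and EOD, edgeR called 8, 11, 0, 28, 7, 3, 8 and 2 genes and DESeq2 94, 133, 1, 105, 87, 123, 29 and 14. Same-numbered libraries of the regimens did not all deviate together: their correlation exceeded 0.1 in 4 of 15 pairs (-0.675 to 0.488, median -0.13). After refeeding it exceeded 0.1 in 12 of 15 pairs (-0.0908 to 0.535, median 0.163). Pairs of unlike number exceeded it there in 16 of 60 (median -0.0624). The block was kept as an alternative, so the main fits after refeeding leave out any effect shared by replicate number. With the replicate block, 1 member was called in IF16-R against AL-R and in EOD-R against AL-R, and 0 elsewhere. Over all genes the block gave, in the same order, 5, 4, 0, 95, 45, 40, 10 and 13. The count of members related to the ciliated marker mean at the end of the regimens, 1, became 2 after group-centring and 0 without the 2 farthest libraries. Over all 15 refed libraries 1 member, Dnah2, was related to the choroid marker mean, and 0 without the 2 farthest libraries. Relations with the gradient after refeeding numbered 1, and 3 after group-centring. The cause was not tested. Counts of 5 to 43 per library limit Dnah7a and Dnah12.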
